A study of Homo sapiens with 8 samples.

Results

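The cells described here were the 502 HepaRG cells with the highest combined level of GRM3, ONECUT1, NR4A3, ARPP21, LRRTM3, WDR72 and F13B, out of 7172 cells considered and 12976 in the whole data set. For each cell, the score was the mean over these 7 genes of log1p(UMIs per 10000), where a UMI is a unique molecular identifier that stands for 1 captured RNA molecule, and the top 7% were taken. Cells needed at least 500 detected genes and at most 20% of their UMIs from mitochondrially encoded genes, and cells given rotenone or 20 µM cycloheximide were not considered. The other 6670 cells are called reference cells. Because the 7 genes chose the cells, and the other genes were counted in the same cells, differences between the high-scoring and the reference cells are given as a description without a test.

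HepaRG is a human liver line that forms hepatocyte-like and biliary-like cells after differentiation. Differentiated cultures were exposed for 24 h and profiled with split-pool barcoding in 8 sublibraries that pooled cells of many cultures. All agents were dissolved in DMSO, the solvent control. The 17 conditions considered were DMSO, brefeldin A at 0.001, 0.01 and 0.1 µM and tunicamycin at the same doses (both disturb protein folding and export in the endoplasmic reticulum), cycloheximide at 0.2 and 2 µM (a translation inhibitor), etoposide at 0.25, 2.5 and 25 µM (a topoisomerase II poison), tBHQ (tert-butylhydroquinone, an NRF2 activator) at 3, 30 and 300 µM, untreated medium, and troglitazone at 50 µM (a PPARγ agonist). Medium and this troglitazone dose are named in the cell table but not in the sample labels. A culture below is 1 condition within 1 numbered run of the cell table; 41 cultures were considered, what a run stands for is not stated, and the study describes 1 treated culture per condition, so cultures of the same condition may be technical repeats and p-values would then measure that spread only.

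Hepatocytes are the main cells of the liver: they secrete albumin, lipoproteins, clotting factors and complement, make urea and bile acids, and clear drugs with cytochrome P450 and conjugating enzymes. ONECUT1, also known as HNF6, is a homeodomain transcription factor of hepatocyte and biliary development, and F13B is the carrier subunit of clotting factor XIII. NR4A3 is an orphan nuclear receptor that is induced quickly by many stimuli. GRM3 is a metabotropic glutamate receptor, LRRTM3 a synaptic adhesion protein and ARPP21 a cAMP-regulated phosphoprotein, all best known from neurons, whereas WDR72 is best known for its need in enamel formation.

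In GENCODE on GRCh38, GRM3 lies at chr7:86643909-86864879 and F13B at chr1:197038741-197067260. ONECUT1 at chr15:52755053-52791078 and WDR72 at chr15:53513741-53762878 are neighbours 722.66 kb apart. The remaining score genes lie on other chromosomes, NR4A3 at chr9:99821855-99866891, ARPP21 at chr3:35638945-35794496 and LRRTM3 at chr10:66926036-67101551. The 250 bases before the RefSeq start sites (assembly GRCh38.p14) are printed below for the 2 genes with the largest difference between the classes, WDR72 and GRM3, and for F13B, the gene of the score with a product made by liver. Capitals mark the letters ATTGAT, the core bound by ONECUT proteins, and ATTAAC, the reverse complement of the HNF1 core GTTAAT.
GRM3, chr7:86643659-86643908, plus strand: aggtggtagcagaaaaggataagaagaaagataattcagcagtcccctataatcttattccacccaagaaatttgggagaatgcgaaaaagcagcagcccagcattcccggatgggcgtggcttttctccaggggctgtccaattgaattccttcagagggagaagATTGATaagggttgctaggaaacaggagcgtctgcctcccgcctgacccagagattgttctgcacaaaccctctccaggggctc
WDR72, chr15:53762879-53763128, minus strand: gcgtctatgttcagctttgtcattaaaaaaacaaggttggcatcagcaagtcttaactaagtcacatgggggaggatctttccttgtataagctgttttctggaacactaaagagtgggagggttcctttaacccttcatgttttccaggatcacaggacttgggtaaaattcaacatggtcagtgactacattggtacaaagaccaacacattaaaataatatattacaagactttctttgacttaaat
F13B, chr1:197067261-197067510, minus strand: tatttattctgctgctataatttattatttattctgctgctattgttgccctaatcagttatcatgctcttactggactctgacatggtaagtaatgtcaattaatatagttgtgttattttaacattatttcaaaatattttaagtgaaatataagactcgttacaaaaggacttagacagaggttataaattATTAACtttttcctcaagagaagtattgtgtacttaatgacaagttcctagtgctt
The GRM3 window held ATTGAT at -84 from the start, and the F13B window held ATTAAC at -56. Neither motif was found in the WDR72 window. On both strands, ATTGAT was found in 5.58% and GTTAAT in 6.23% of 35116 promoter windows of this length, and over all 16 start sites of the 7 genes in 3 and 4 windows. No overlap between these motifs was found in the 3 printed windows, and a match of letters is not evidence of binding.

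The score formed a continuous range and not a separate peak. Its median was 0.804 in the high-scoring cells and 0.0551 in the reference cells, with a highest value of 1.69 and 2160 reference cells at 0. The cutoff fell at 0.679, and the nearest cells lay at 0.678776 inside and 0.678774 outside. Within 10% of the cutoff there were 148 high-scoring and 185 reference cells. Among the 502 cells, 145 had a UMI of all 7 genes, 160 of 6, 120 of 5, 65 of 4 and 12 of 3. All 7 genes were also detected in 269 reference cells.

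In the 8 cultures that held at least 20 high-scoring cells (269 cells in all), every score gene was higher in the high-scoring cells than in the reference cells of the same culture, as the choice of cells requires. Values are UMIs per 1000000 (CPM) summed over the cells of a class and culture, and log2 ratios were computed within a culture with 1 CPM added to both sides. WDR72 lay between 127 and 231 CPM with a median of 196 in the high-scoring cells and between 16.7 and 22.6 with a median of 20.4 in the reference cells, a median log2 ratio of 3.28. GRM3 ranged from 168 to 289 CPM (median 190) against 14.7 to 43.0 (median 23.8), a log2 ratio of 2.93. ONECUT1 ranged from 262 to 468 CPM (median 368) against 44.2 to 86.0 (median 62.1), a log2 ratio of 2.49. For these 3 genes the lowest high-scoring value lay above the highest reference value over the 8 cultures.
NR4A3 had a median of 189 CPM against 31.9, and F13B of 143 against 31.0. ARPP21 had a median of 60.9 CPM against 14.2. The log2 ratio of LRRTM3 had the widest range over the 8 cultures, 0.73 to 3.58, with 43.3 to 145 CPM against 11.2 to 28.9.

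**Figure D1:**
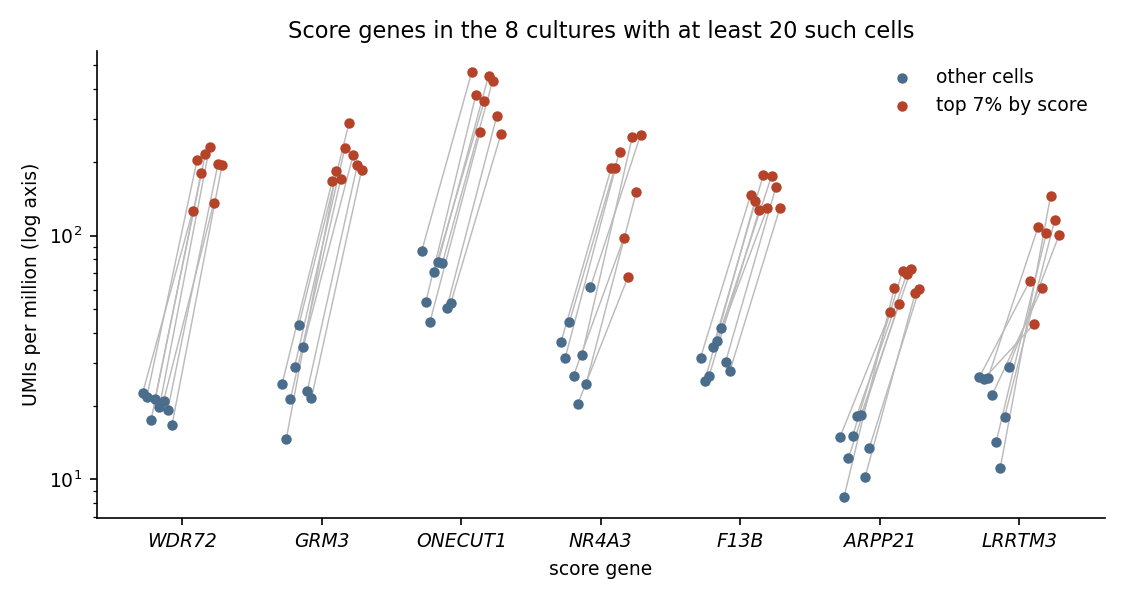
Levels of the 7 score genes in CPM (log axis) in each of the 8 cultures with at least 20 high-scoring cells, with 1 point per culture and class. The high-scoring cells lie above the reference cells for every gene, because these genes chose the cells. LRRTM3 ranges from 43.3 to 145 and NR4A3 from 67.6 to 258 in the high-scoring cells.

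Detection followed the same pattern. GRM3 had a UMI in 90.0% of the high-scoring and 26.7% of the reference cells, ONECUT1 in 99.6% and 34.8%, and WDR72 in 78.1% and 20.2%. With each cell thinned to 10000 UMIs, which left 494 high-scoring and 6554 reference cells, GRM3 was found in 71.7% and 11.2%, ONECUT1 in 90.9% and 20.8%, and WDR72 in 60.1% and 8.39%. A cluster of 845 cells led by COL3A1, PDGFRB and C1QTNF7 held none of the high-scoring cells. It had a UMI of GRM3 in 5.21%, of ONECUT1 in 4.97% and of WDR72 in 2.37% of its cells, unthinned, at a median of 21430 UMIs per cell. Detection was not particular to the high-scoring cells. In the ITGBL1-led cluster described below, 36.2% high-scoring, these genes had a UMI in 76.5%, 92.4% and 55.8% of all cells. In the ARG1-led cluster, 27.2% high-scoring, it was 73.8%, 97.3% and 67.2%. The reference cells of the ITGBL1-led cluster had 83.8 CPM of GRM3 and 179 of ONECUT1. The median depth of the high-scoring cells was 46175.5 UMIs and 8195.5 genes, that of the reference cells 39728 UMIs and 8016 genes, and the median mitochondrial share was 14.7% and 15.1%. The share of high-scoring cells was between 5.90% and 8.42% in the 8 sublibraries. Of 12063 combinations of barcode wells, 822 were used in more than 1 sublibrary and 0 in more than 1 culture, and 4 of the high-scoring cells shared their wells with another of them.

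The high-scoring cells carried a strong hepatocyte profile. On a score over 16 hepatocyte markers that did not include any of the 7 genes, 500 of 502 lay above the median reference cell of their culture and 445 above its upper quartile. The median of this score was 1.60 in the high-scoring and 0.724 in the reference cells. The 16 markers summed to between 30839 and 43470 CPM in the high-scoring cells and between 12838 and 22637 in the reference cells. Neuronal and endocrine markers gave no such separation: 7 neuron markers summed to a median of 1130 CPM against 949, and 5 endocrine markers to a median of 0 CPM against 0.148. Biliary markers differed less. Of 11 cholangiocyte markers, 5 passed the level filter used below and 0 of them lay past 2-fold in either direction (list median 0.23), and the 11 summed to a median of 405 CPM against 331, higher in 8 of 8 cultures. KRT19, a keratin of bile duct cells, had a median of 81.6 CPM in the high-scoring and 82.1 in the reference cells (log2 ratio -0.07), and SOX9, a biliary and progenitor factor, 28.9 and 19.3 (0.51). KRT7 (0.04), CFTR (-0.12) and SCTR (-0.16), also biliary, did not reach the level filter. By these markers the high-scoring cells were hepatocyte-like.

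**Figure D2:**
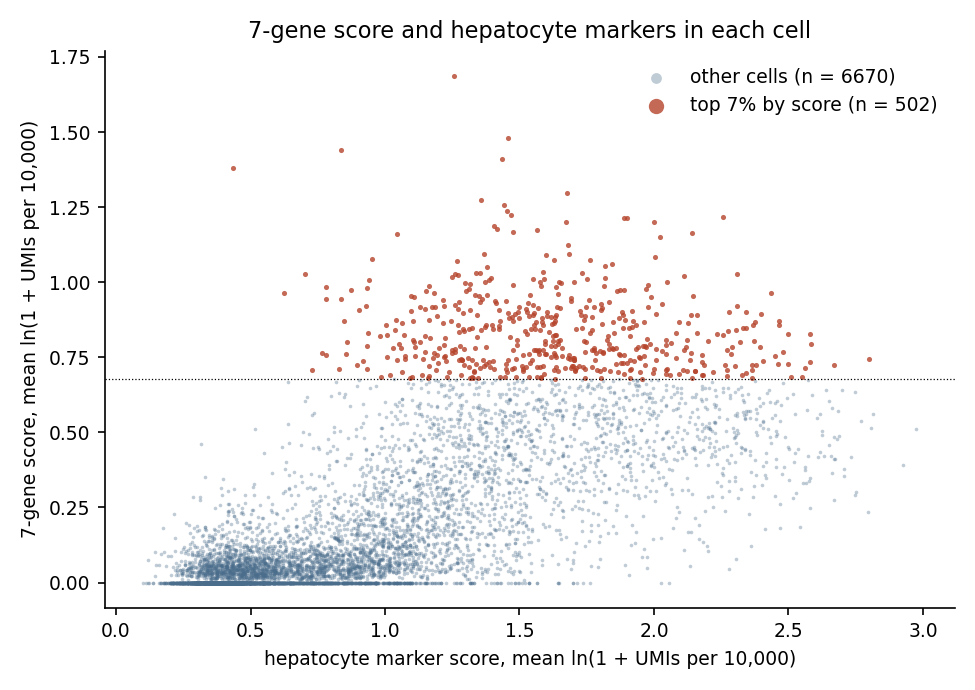
The 7-gene score (log1p of UMIs per 10000, mean over genes) of each cell against its hepatocyte marker score, on the same scale; the line marks the cutoff of 0.679. High-scoring cells lie almost entirely in the upper range of the hepatocyte score, with medians of 1.60 and 0.724 in the classes, and reference cells fill the whole range.

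Of 8388 genes with at least 20 CPM in the higher class, 372 were at least 2-fold higher in the high-scoring cells by the median over the 8 cultures (4.43% of the genes compared) and 530 at least 2-fold lower (6.32%). In all 8 cultures, 350 and 470 of these kept their direction. The median log2 ratio of all genes was -0.16, so values near it are those of an average gene. Since the hepatocyte profile moved with the score, some results are also given against reference cells matched on the hepatocyte marker score within each culture. This comparison was added after the data were seen. Ratios given without a matched value still contain the difference in hepatocyte profile. These matched cells had medians of 1.60 in the hepatocyte score and 60984.5 UMIs per cell. Against them, 12 of 7854 genes were at least 2-fold higher (0.153%) and 100 at least 2-fold lower (1.27%), of which 11 and 99 were also 2-fold different from all reference cells.

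Secreted liver proteins were higher as a group. Of 27 coagulation and complement genes that passed the level filter, 19 passed 2-fold upward and none downward (list median 1.12), and of 8 apolipoprotein and lipid export genes, 7 were higher with a median of 1.43. C8A, a chain of the membrane attack complex, had a median of 140 CPM against 38.6 (log2 ratio 1.81), and F12, the contact factor of clotting, 48.3 against 17.1 (1.63). Albumin itself (ALB) had 17860 CPM, with a range from 14520 to 23117, against 7526, with a range from 5764 to 11270, and the classes did not overlap (1.24). The largest log2 ratio among the secreted proteins was that of AFM, afamin, a vitamin E binding relative of albumin, with 521 to 824 CPM against 96.6 to 282 (2.20). Against the hepatocyte-matched cells the list medians were 0.14 and 0.27, and ALB stood at 0.29 and AFM at 0.53.

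Drug and steroid clearing enzymes gave some of the largest ratios. UGT2B15 and UGT2B4, which attach glucuronic acid to steroids, bile acids and drugs, had medians of 259 and 383 CPM against 49.9 and 74.1, log2 ratios of 2.39 and 2.22. The UGT2B genes are close paralogs, so part of their UMIs may be assigned to the wrong copy. CYP2C8, a cytochrome P450 of drug oxidation, had 224 to 523 CPM against 41.3 to 175 (2.20). Among 14 conjugation enzymes that passed, 6 lay past 2-fold upward and 0 downward, and among 16 P450 genes 7 and 0. The medians of these lists against the hepatocyte-matched cells were 0.03 and 0.11. GSTA2 (-0.05) and SULT1A1 (0.03), a glutathione and a sulfate transferase, stood at the level of the reference cells.

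The other genes among the 12 highest ratios were of several kinds. MIR122HG, the host transcript of the liver microRNA miR-122, had 343 to 626 CPM against 89.0 to 155, and KLB, the co-receptor of hormonal fibroblast growth factors, 47.0 to 95.4 against 12.4 to 24.5, and neither overlapped between the classes. HABP2, a plasma protease, had 121 to 269 CPM against 35.8 to 67.3, and SLC17A4, a phosphate carrier family member, 165 to 222 against 38.6 to 72.8. SPP2, a secreted phosphoprotein of liver, was less even, with log2 ratios from 0.00 to 3.00. The long noncoding RNAs LINC02499 (2.22), DISC1FP1 (2.08) and LINC02220 (2.07) completed this group.

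The P450s of the CYP3A family differed among themselves. CYP3A5 had a median of 3942 CPM against 1493 (log2 ratio 1.26), and was detected in all 502 cells. CYP3A4, the major drug-oxidising P450 of adult liver, had a log2 ratio of -0.12 with a range from -1.66 to 3.64 over the 8 cultures, and -1.70 against the hepatocyte-matched cells. Only 156 of the 502 cells had a CYP3A4 UMI, and 10 cells held 57.6% of its 3403 UMIs. In the DMSO cultures with at least 10 high-scoring cells, CYP3A4 stood at 255 CPM in run 3, 23.5 in run 5 and 301 in run 6. CYP3A7, the fetal form, had a log2 ratio of 1.60 and of 1.01 against the matched cells, and 10 cells held 51.4% of its UMIs. CYP3A4 and CYP3A7 are near-identical in much of their sequence, and their values rest on few cells.

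Metabolic functions of hepatocytes moved in the same direction. Of 11 genes of the urea cycle and amino acid breakdown, 7 were at least 2-fold higher: CPS1, the entry enzyme of the urea cycle, had 596 CPM against 188 (log2 ratio 1.69) and TDO2, which opens tryptophan breakdown, 442 against 149 (1.60). ARG1, arginase, had a median ratio of 1.21 but a range from -1.11 to 1.92 between cultures, and ASS1, another urea cycle enzyme, stood at 0.01. Of 8 genes of gluconeogenesis and glycogen, 4 were higher, with SLC2A2, the hepatic glucose carrier, at 135 CPM against 46.6 (1.61). Of 21 cholesterol synthesis genes, 3 passed 2-fold and 18 were higher in all 8 cultures, with HMGCS1, an early enzyme of the pathway, at a log2 ratio of 1.11. Beside the hepatocyte-matched cells the list medians were 0.21 for urea cycle and amino acid breakdown, 0.16 for gluconeogenesis and glycogen and 0.26 for cholesterol synthesis.

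Bile acid genes held the clearest exception. ABCG8 and ABCG5, the sterol exporter pair, were at 77.8 and 24.8 CPM against 21.2 and 7.07 (log2 ratios 1.84 and 1.71), and BAAT, which conjugates bile acids, at 282 against 92.9 (1.68). SLCO1B1, an uptake carrier of bile acids and drugs, had 150 CPM against 50.2 (1.60). Its close relative SLCO1B3, with overlapping cargo, went the other way: it lay between 2.53 and 9.20 CPM with a median of 4.97 in the high-scoring cells and between 34.8 and 54.5 with a median of 40.6 in the reference cells, and the classes did not overlap (log2 ratio -3.13). Against the hepatocyte-matched cells SLCO1B3 stood at -1.27 and SLCO1B1 at 0.48. Over the alternatives tried, the SLCO1B3 ratio ranged from -3.57 to -1.25.

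Among transcription factors of hepatocytes, 3 of 14 that passed the level filter lay past 2-fold upward and 0 downward. PROX1, a homeobox factor of liver development, had 324 CPM against 114 (log2 ratio 1.54), NR5A2 (LRH-1, a regulator of bile acid synthesis) 136 against 56.5 (1.2), and NR1I2 (the pregnane X receptor) 32.2 against 13.9 (1.03). HNF4A, a central factor of hepatocyte identity, stood at 185 against 96.6 CPM (0.93). ONECUT2, the paralog of ONECUT1, was at 64.3 against 43.9 CPM (0.56), and at 0.02 against the hepatocyte-matched cells. ONECUT1 stood at 1.36 there, but it is a score gene and high by the choice of cells, so the 2 values are not comparable.
Immediate early genes, the fast transcription factors induced by many stimuli, were higher too. Leaving NR4A3 out, 4 of 17 were at least 2-fold higher, 13 were higher in all 8 cultures, and the list median was 0.77, and 0.51 against the matched cells. FOSB had 273 CPM against 108 (1.51), ATF3 475 against 183 (1.26), FOS 180 against 83.0 (1.17) and JUN 449 against 222 (1.04). NR4A1 stood at 0.79 and NR4A2 at 0.72. NR4A3, itself such a gene, helped to choose the cells, and leaving it out of the list does not leave it out of that choice. The cells were dissociated with inhibitors of transcription and translation present, per the labels, and the part of dissociation in these levels was not tested.

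**Figure D3:**
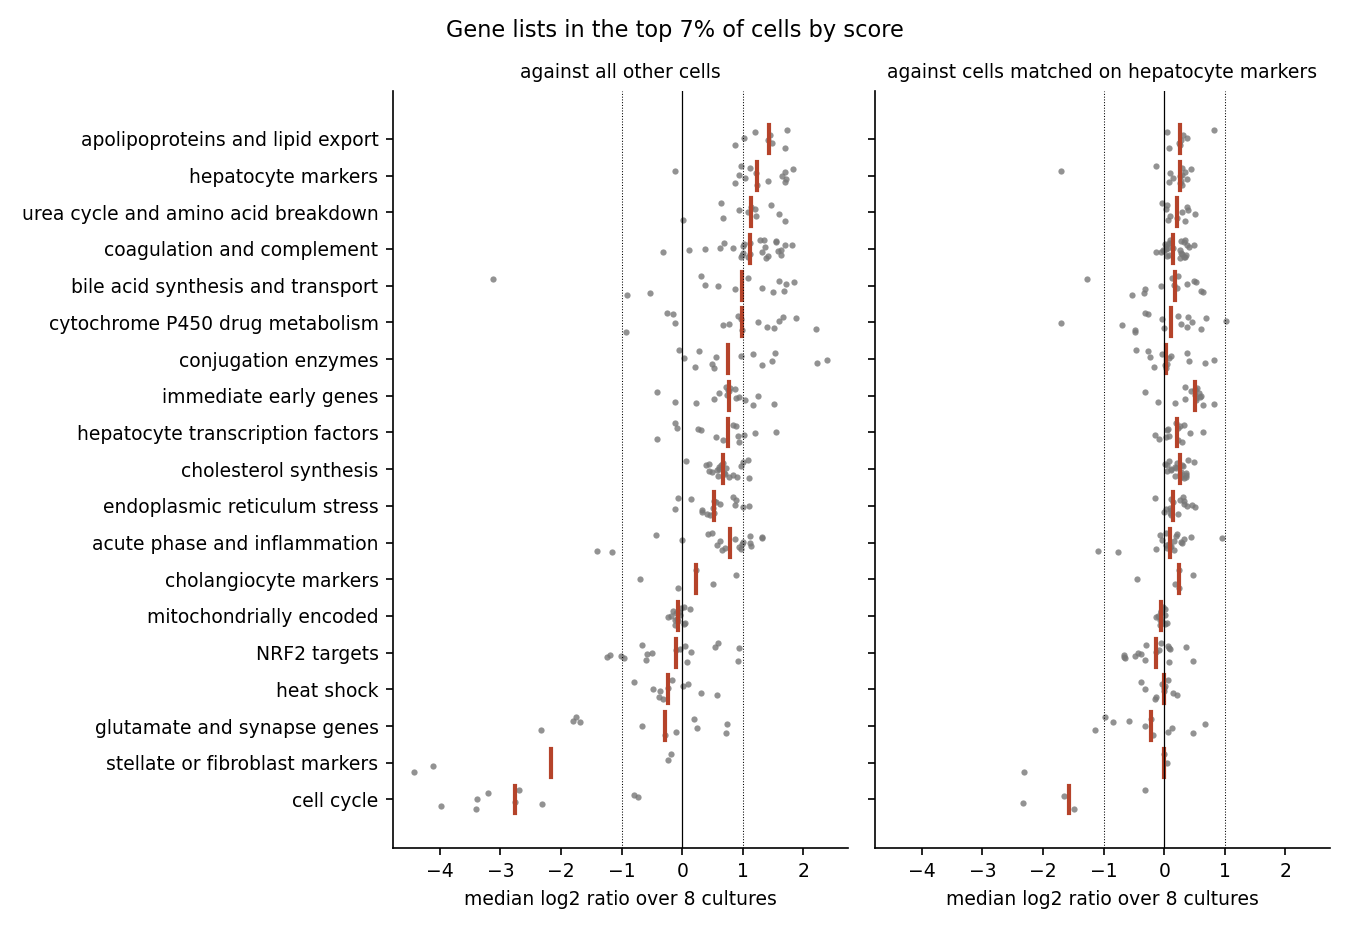
Median log2 ratio of the high-scoring cells for each gene list, with 1 point per gene that passed the level filter, against all reference cells and against the reference cells matched on the hepatocyte marker score. Hepatocyte lists have medians near 1 against all reference cells (1.12 for coagulation and complement) and near 0 against the matched cells (0.14). Immediate early genes have 0.51 against the matched cells, in cells chosen in part by NR4A3, itself such a gene.

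Several markers of mesenchymal and dividing cells were lower in the high-scoring cells. The 10 stellate or fibroblast markers summed to between 95.8 and 133 CPM against 190 to 305, and of the 4 that passed the level filter 2 were at least 2-fold lower, COL3A1 and DCN. COL3A1, a fibrillar collagen, had 0 to 12.9 CPM with a median of 2.21 against 34.0 to 115 with a median of 69.0 (log2 ratio -4.43), and DCN, decorin, 0 to 3.68 against 24.1 to 37.8 (-4.11). Of 5 endothelial markers 1 passed the level filter, KDR, a receptor of vascular growth factor, with 1.04 to 9.49 CPM against 33.7 to 91.9 (-3.98). PRKAR2B, a regulatory subunit of protein kinase A, had the lowest ratio, -4.83, at 0 to 4.6 CPM against 23.1 to 44.2. ITGA10, a collagen-binding integrin (-4.31), COL8A1, a short-chain collagen (-4.13), ECM1, a matrix glycoprotein (-4.11), and ADGRB3, an adhesion receptor (-3.97), were also among the 12 lowest. Of 9 cell cycle genes that passed, 7 were at least 2-fold lower, with TOP2A, the topoisomerase of dividing cells, at 8.94 CPM against 88.4 (-3.99). MKI67, a proliferation marker, was at 7.61 CPM against 90.7 (-3.40), although both were higher than the reference in 1 culture. Against the matched cells TOP2A stood at -2.34.

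Single genes of other lists also lay below the reference. The acute phase and inflammation list had a median of 0.79, with 14 of 20 genes higher in all 8 cultures, and of 0.10 against the hepatocyte-matched cells. The acute phase genes SAA1 and SAA2 had 136 and 51.7 CPM against 316 and 162 (log2 ratios -1.16 and -1.40), while 6 genes of that list, CXCL2, CXCL1, SERPINA3, FGB, CCL20 and FGG, were at least 2-fold higher. The 17 NRF2 targets had a median of -0.10, near that of all genes, and 3 were at least 2-fold lower, among them TKT (-1.19) and TALDO1 (-1.01), enzymes of the pentose phosphate pathway. Of 11 glutamate and synapse genes other than the score genes, 4 were lower and 0 higher, with GRIK2, a kainate receptor subunit, at 8.90 CPM against 41.6 (-2.34), and DLG2, a synaptic scaffold, at 56.1 against 189 (-1.80). GRIA3, an AMPA receptor subunit, stood at 0.72. The glutamate and synapse list as a whole lay lower, with a median of -0.28. It summed to a median of 1781 CPM against 3191, higher in 0 of 8 cultures. CYP7B1 (-0.91) and GLUL, glutamine synthetase of pericentral hepatocytes (-0.68), were lower in all 8 cultures without passing 2-fold.

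Stress lists other than that of the endoplasmic reticulum had medians near that of all genes, -0.16. Heat shock genes had a list median of -0.24 with 0 of 11 past 2-fold, p53 targets -0.16 with 2 of 20 higher and 0 lower, and integrated stress response genes -0.26 with 1 of 12 higher and 2 lower. Endoplasmic reticulum stress genes had a list median of 0.52, and 8 of 17 were higher in all 8 cultures. The list summed to a median of 3749 CPM against 2986, higher in 8 of 8 cultures. Sums of p53 targets (4107 against 3620) and integrated stress response genes (1048 against 786) were also higher in 8 of 8. That of heat shock genes (1543 against 1800) was higher in 1. Against the hepatocyte-matched cells the list medians were 0.15 for endoplasmic reticulum stress, 0.06 for p53 targets, 0.06 for the integrated stress response and -0.01 for heat shock. At least 2-fold higher were EDEM1 (1.1) and HERPUD1 (1.00), both of protein degradation, and the chaperone HSPA5 stood at 0.46. The 15 mitochondrially encoded genes had a median of -0.07.

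The genes that remained higher beside hepatocyte-matched cells were few and of mixed function. ALPK2, an atypical kinase, had 59.2 to 159 CPM in the high-scoring cells and 20.2 to 28.2 in all reference cells, a log2 ratio of 1.86, and 1.46 against the matched cells. TUFT1, tuftelin, first described in enamel, was at 136 CPM against 43.6 (1.51 and 1.25). LMCD1, a LIM protein, had 301 against 91.8 (1.56 and 1.2), and SLC30A10, a manganese exporter, 152 against 41.0 (1.79 and 1.06). Secreted growth factors were among them: GDNF, a neurotrophic ligand, at 122 to 390 CPM against 36.6 to 112 (1.71 and 1.05), and BMP2, a bone morphogenetic ligand, at 55.2 to 119 against 15.8 to 47.0 (1.46 and 1.03). Part of this was shared by reference cells of the same cluster. In the cluster led by ITGBL1, ADGRG2 and BMP2, described below, the high-scoring cells had 125 CPM of BMP2 and the reference cells 106, with 309 and 220 of GDNF and 101 and 65.1 of ALPK2, summed over all cells. HOMER1, a scaffold of metabotropic glutamate receptors in neurons, had 66.3 to 204 CPM against 32.3 to 83.5 (1.03 and 0.92). With matching on both the hepatocyte score and UMIs per cell, where the matched median of 47209.5 UMIs was near that of the high-scoring cells, the counts were 10 higher and 65 lower.

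Genes near the score genes were looked at within 2 Mb. Of the 11 measured neighbours of F13B, 5 were at least 2-fold higher, among them CFHR4 (log2 ratio 1.72), CFHR2 (1.55) and CFHR3 (1.34). These 3 genes are near copies of each other, so their separate values are uncertain. ASPM, a spindle gene 16.861 kb from F13B, stood at -2.30. Around ONECUT1, 1 of 12 neighbours was higher, WDR72 itself, and around WDR72 1 of 13, ONECUT1 itself, and the medians of these neighbourhoods were -0.20 and -0.15. ONECUT1 and WDR72 are both score genes, high by the choice of cells. Of 11 neighbours of GRM3 (median -0.16), 2 were higher, ABCB4, a phospholipid exporter of bile (1.32), and RUNDC3B (1.00), 536.817 and 762.669 kb away, and 2 were lower, DBF4, an activator of DNA replication (-1.19), and ENSG00000233420 (-3.76).

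The high-scoring cells did not form 1 cluster. In a clustering of the 7172 cells that left the 7 genes out, 225 of the high-scoring cells (44.8%) lay in a cluster of 622 cells led by ITGBL1, ADGRG2 and BMP2. Another 152 (30.3%) lay in a cluster of 558 cells led by ARG1, G6PC1 and CYP2A6. A further 50, 28, 20 and 15 lay in 4 other clusters. Of the cells of the first 2 clusters, 36.2% and 27.2% were high-scoring. Hepatocyte markers summed to 29088 and 46234 CPM over all cells of these clusters. In 11 cultures with at least 5 high-scoring cells in both, the pair differed in liver enzymes, which also made the clusters, so no test was made. ARG1 had a median of 4.51 CPM in the ITGBL1-led and 108 in the ARG1-led cluster (log2 ratio -4.22), and CPS1 348 and 1235 (-1.71). APOB, 6882 and 8087 CPM (-0.21), and CYP3A5, 4462 and 3875 (0.04), were close. The biliary marker KRT19 was at 97.6 and 48.8 CPM (1.16), higher on the ITGBL1-led side in 10 of 11 cultures. SOX9 was at 33.6 and 21.9 CPM (0.60), higher there in 8 of 11. By their medians the score genes divided as well, with LRRTM3 (1.57), ARPP21 (1.01) and NR4A3 (0.75) on the ITGBL1-led side and WDR72 (-0.61), F13B (-0.51) and ONECUT1 (-0.41) on the other, while GRM3 (0.19) was nearly even. The ranges over the 11 cultures crossed 0 for all 7, from -1.56 to 4.22 for LRRTM3 and from -1.53 to 1.01 for WDR72. Their mean chose the cells, so a division among them may in part follow from that choice.

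**Figure D4:**
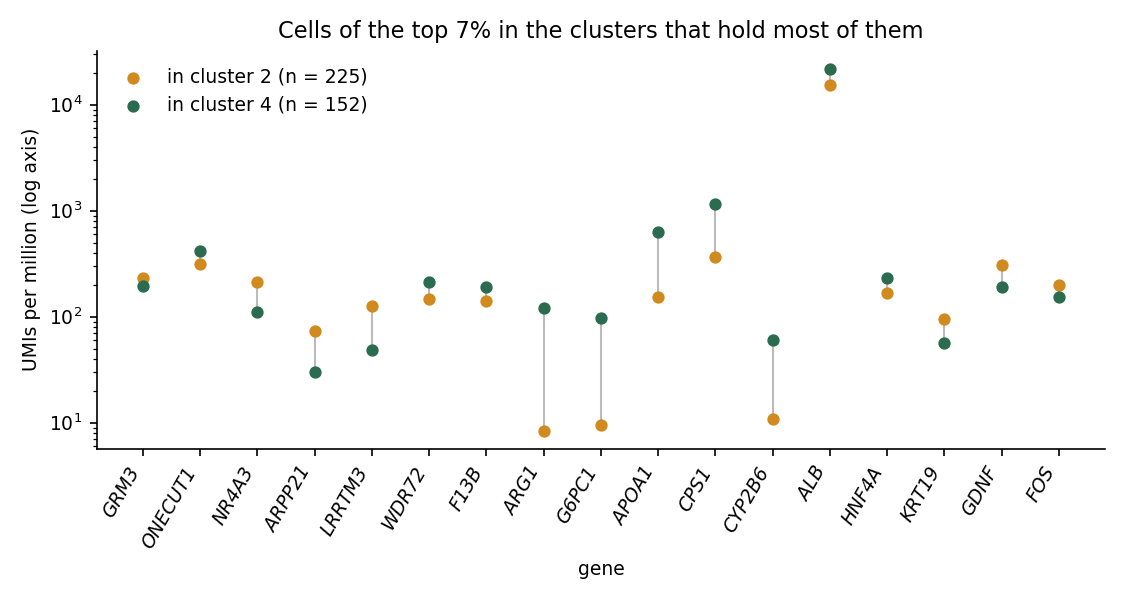
Levels in CPM (log axis) of score genes and liver genes in the high-scoring cells of the 2 clusters that hold most of them, 225 and 152 cells, each summed over all its cells. GRM3 and FOS are close in both, whereas ARG1, G6PC1 and CYP2B6 are far lower in the ITGBL1-led cluster.

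The share of high-scoring cells varied between conditions about as much as between cultures of 1 condition. In DMSO it was 8.05% (63 of 783 cells, 95% exact binomial interval 6.24 to 10.2%, which covers counting error only), and the 4 DMSO cultures with more than 2 cells stood at 7.60%, 4.72%, 8.36% and 12.9%. Etoposide gave 8.82%, 6.80% and 5.52% at 0.25, 2.5 and 25 µM, tunicamycin 5.61%, 7.90% and 5.52% at 0.001, 0.01 and 0.1 µM, and tBHQ 7.87%, 6.67% and 5.00% at 3, 30 and 300 µM. Brefeldin A gave 7.46%, 11.7% and 3.25% from the lowest to the highest dose, the last from 4 of 123 cells in 1 culture. Cycloheximide gave 7.66% at 0.2 µM and 3.94% at 2 µM, medium 6.93% and troglitazone 10.5%. Only the highest doses considered of brefeldin A and cycloheximide lay below the lowest of these DMSO cultures, and no test between conditions was made, since the cutoff was set over all of them.

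**Figure D5:**
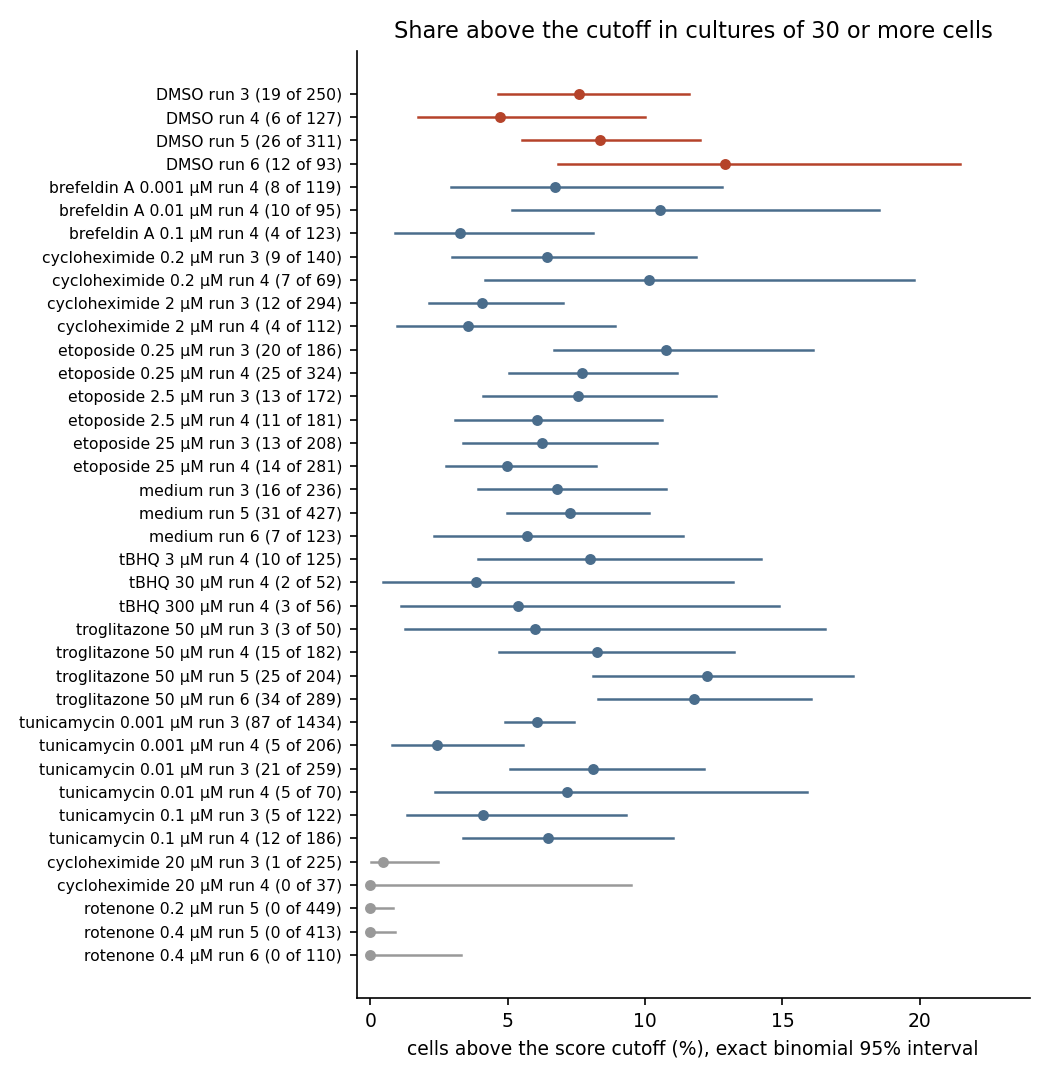
Percent of cells above the cutoff in each culture, grouped by condition, with 95% exact binomial intervals as bars. The DMSO cultures with more than 2 cells span 4.72% to 12.9%, and intervals of small cultures reach far beyond that.

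Almost no such cells were found among the treatments left out. With the same cutoff, 0 of 972 rotenone cells passed, which allows a share of up to 0.309% by a limit of 3 counts and 0.379% by the exact binomial interval, and 1 of 262 cells at 20 µM cycloheximide (0.382%). The 7 genes summed over all cells of a culture to between 265 and 343 CPM in the 4 DMSO cultures, to between 22.1 and 66.4 in the 3 rotenone cultures and to 66.8 and 63.2 in the 2 cycloheximide cultures. Fewer cells of this kind and less RNA of these genes per cell cannot be told apart from such sums. The rotenone cells of run 5 had medians of 184833 and 184485 UMIs per cell at 0.2 and 0.4 µM, far above the high-scoring cells. Those of run 6 at 0.4 µM had a median of 45112.5, near the 46175.5 of the high-scoring cells. In that culture 0 of 110 cells passed, the highest score was 0.166, and the 7 genes summed to 24.6 CPM. The part of depth in the low scores was not tested.

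Apart from etoposide, medium and troglitazone, treatments had at most 1 culture per dose with at least 10 high-scoring cells, so their values have no replicate check. HSPA5, the chaperone of the endoplasmic reticulum, stood at 350, 590 and 475 CPM in the high-scoring cells of DMSO runs 3, 5 and 6, and at 502, 430 and 571 with tunicamycin at 0.001, 0.01 and 0.1 µM, which overlapped. With 2 µM cycloheximide it was at 136 CPM, the lowest of the cultures with at least 10 such cells. The reference cells of that culture were also low, at 149 CPM, against 310, 367 and 280 in those of DMSO runs 3, 5 and 6. In the high-scoring cells GDF15, a secreted stress cytokine, was at 230 CPM with 0.1 µM tunicamycin, against 88.4, 133 and 109 in DMSO. That value was the highest of the cultures with at least 10 such cells. ALB stood apart in troglitazone run 4, at 2441 CPM in the high-scoring and 1791 in the reference cells, against 7697 CPM or more in the high-scoring cells of the other cultures with at least 10 of them. That culture held 15 high-scoring cells and was not among the 8 compared. Its median mitochondrial share was low, at 1.62% in the high-scoring and 3.40% in the reference cells.

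Within the high-scoring cells, etoposide was the treatment with repeated cultures of at least 10 such cells at every dose, beside 3 DMSO cultures. Medium and troglitazone, which the labels do not give as conditions, were not tested. In edgeR's quasi-likelihood test with Benjamini-Hochberg adjustment on counts summed per culture, 0, 0 and 1 of 11136 genes passed an adjusted p of 0.05 at 0.25, 2.5 and 25 µM, with 529, 577 and 451 genes at an unadjusted p under 0.05. DESeq2 called 2, 0 and 1. The 1 edgeR call is 0.00898% of the genes tested. It was KCNQ3, a subunit of a neuronal potassium channel, with 6.63, 12.1 and 8.66 CPM in DMSO runs 3, 5 and 6 and 69.0 and 51.6 in runs 3 and 4 at 25 µM, which rose by a log2 fold change of 2.64 (SE 0.37, edgeR adjusted p = 0.0473, n = 3 and 2). Run 3, which held both conditions, had 6.63 and 69.0 CPM. The high-scoring cells of the medium culture of run 3 stood at 60.2 CPM, however, inside the etoposide range. The call was lost when any 1 DMSO culture or run 4 of etoposide was left out, with 0 calls in each of these fits. In the reference cells of the same DMSO runs KCNQ3 was at 76.0, 83.2 and 90.0 CPM.

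CYP2C19, a drug-oxidising P450, had the smallest p at 0.25 µM, with 235, 137 and 156 CPM in DMSO and 51.5 and 29.0 in etoposide, a log2 fold change of -2.14 that did not pass (SE 0.34, edgeR adjusted p = 0.163). The p53 targets, known to respond to etoposide, did not pass at any dose. Their median log2 fold change in the high-scoring cells was 0.22, 0.13 and 0.17 at the 3 doses, with 15, 14 and 14 of 20 genes above 0, and in the reference cells 0.19, 0.18 and 0.41, with 16, 18 and 20 above 0. MDM2, the p53 ubiquitin ligase and target, had 1473, 1231 and 1095 CPM in the DMSO cultures, and 2150 and 1754 at 0.25 µM (log2 fold change 0.62, edgeR adjusted p = 0.992), 1985 and 1350 at 2.5 µM, and 1783 and 1629 at 25 µM, so that 1 culture at 2.5 µM lay inside the DMSO range. A test of whether the etoposide effect differed between the high-scoring and the reference cells, with the culture as a block, called 0 of 17166 genes at each dose, with 505, 779 and 671 at an unadjusted p under 0.05, and DESeq2 called 1, 0 and 1. Over the 20 p53 targets the median of this difference was 0.05, -0.05 and -0.29 on the log2 scale, with 14, 8 and 1 of 20 genes above 0, and none passed. In the reference cells 0 of 20803 genes passed at any dose, with 866, 519 and 907 genes at an unadjusted p under 0.05.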

How the data were processed

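The authors deposited UMI counts per gene and cell from a split-pool kit. Per the study's methods, barcodes and UMIs were extracted, reads were aligned and identical UMIs of a gene collapsed; the submitters' processing notes name GRCh38, and for the aligner no version is given in the sources used here. As deposited, the matrix holds 12976 cells, 62703 genes and 1002686268 UMIs, and 4570 cells had over 20% mitochondrial UMIs. Doublets were not removed. GENCODE 44 gave gene positions, matched by identifier for 62625 genes. The high-scoring and reference cells summed to 33977307 and 473712083 UMIs.

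UMIs were summed per culture and class, scaled to CPM by the total, and compared within cultures that held at least 20 high-scoring cells. A gene passed the level filter at a mean of at least 20 CPM in the higher class, and the 7 score genes were left out of all counts except those of neighbours. Named genes were the 12 highest and 12 lowest ratios in 1 direction in every culture, the 4 largest of lists with 3 members past 2-fold, markers the study names, neighbours of score genes within 2 Mb and the 5 smallest p-values of each contrast; SLCO1B3, the CYP3A genes, genes beside matched cells and genes below 2-fold were named after their values were seen. Etoposide was compared with DMSO by edgeR 4.0.16 (quasi-likelihood, filterByExpr, R 4.3.3) on sums of cultures with at least 10 high-scoring cells; troglitazone and medium were not tested, because the labels do not give them. In simulated counts for etoposide at 25 µM (11143 genes), the test recovered 6, 22, 96 and 96% of 50 genes changed 1.5, 2, 4 and 8-fold, with 10 false calls. The changed genes were drawn from those with a mean above 20 CPM, so recovery at lower levels was not simulated. Clustering used scanpy 1.11.5 and igraph 0.11.9 without the score genes. Alternatives covered the score, cutoff, depth, scaling, filters, matching and DESeq2 1.42.0. The members, gene lists and tests were chosen with earlier results of these data known. The binomial intervals cover counting error only. Some genes that met the naming rule are not reported here.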

Additional observations from a re-analysis of the deposited data

Results flagged for a closer look

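Among the 4 DMSO cultures with more than 2 cells, the high-scoring cells of run 4 stood apart in their median mitochondrial share, 0.955%, by a gap of 0.856 of the range of the 4 values against a critical value of 0.829. That median rests on 6 cells, and chance flags about 1 in 20 such groups, of which 5 measures were looked at. The low share was not limited to the high-scoring cells, since the reference cells of that culture had a median of 2.49%. In run 4, reference cells of medium (1.92%), 0.2 µM cycloheximide (1.30%) and troglitazone (3.40%) were also low, but those of 300 µM tBHQ had 17.8%. DMSO run 4 entered neither the comparison of the classes over 8 cultures nor the etoposide test.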

How the results depend on the processing

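Over 31 alternatives, 1050 of 1054 ratios of 34 genes past 2-fold kept their direction. Part of this was fixed in advance. The 12 highest and 12 lowest genes were chosen for 1 direction in all 8 cultures, so leaving out cultures could not reverse them. Requiring a UMI of at least 3 score genes removed none of the high-scoring cells. With at most 10% mitochondrial UMIs, which left 20 high-scoring cells of 1 culture, SPP2 stood at -1.68, ARG1 at -1.52 and CYP3A7 at -0.35; matched on hepatocyte score and UMIs, ARG1 stood at -0.29. The count of lower genes became 1022 at 5 CPM, 251 at 50 CPM and 945 with at most 10% mitochondrial UMIs. Matching, added after seeing the data, left 12 higher and 100 lower on the hepatocyte score and 10 and 65 on the score and UMIs; the cause was not tested. Leaving out each culture in turn gave 349 to 388 higher and 494 to 553 lower genes. Leaving out 1 score gene kept 81.1 to 90.8% of the cells, and thinning 74.9%. None of 34 alternative values of the condition shares moved beyond their interval.

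For etoposide at 0.25, 2.5 and 25 µM, dropping the filter on low counts gave 49, 16 and 28 calls in the high-scoring cells and 46, 14 and 24 for the difference from the reference. Requiring 20 cells per culture left 1 DMSO culture, assumed to vary like the others, and gave 22 and 16 calls at 0.25 µM. The top 10% gave 0 calls at 25 µM, matching on UMIs 1 for the difference at 0.25 µM, and DESeq2 2 in the cells at 0.25 µM, with 1 and 1 for the difference at 0.25 and 25 µM. Leaving out 1 culture gave 0 to 1 calls at 25 µM, and for the difference 0 to 50 at 0.25 µM (50 without etoposide run 3) and 0 to 1 at 25 µM. With 2 or 3 cultures a group, 2-fold changes were mostly missed in the simulated counts (22% recovered), and changes between 2-fold and 4-fold were not simulated. The labels number no replicates of the tested groups. Of the run numbers in the cell table, DMSO shared 1 with etoposide, and deviations of same-run etoposide cultures correlated at 0.15, 0.02 and -0.03 over 7277 genes, so runs were not taken as pairs. With the run as a replicate block, added after seeing the data, where 2 residual degrees of freedom remained and the DMSO level rested on run 3, there were 0, 0 and 0 calls in the high-scoring cells and 8, 1 and 6 for the difference; KCNQ3 at 25 µM had log2 fold changes of 3.38 (edgeR adjusted p = 0.705) and 3.14 (0.0453).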
